A study of Mus musculus with 27 samples.

Results

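The epididymal fat pad of the mouse, a visceral depot beside the testis, was compared at 13 weeks, after normal diet, and at 5 weeks of age. All 6 libraries with these labels were used, of 27 in the series: 3 of the control8 group, C57BL/6N mice aged 13 weeks after 8 weeks of normal diet, and 3 of the initial group, C57BL/6N mice aged 5 weeks at the start of the diet schedule, with a treatment period of 0 weeks. The titles of the initial group name no diet, so age and 8 weeks of normal diet differ together and cannot be told apart. RNA was total RNA from lysed epididymal white adipose tissue, so every cell type of the pad contributed. The other 21 libraries hold later normal-diet controls (control12 at 17 weeks and control16 at 21 weeks) and mice on cycles of high-fat and normal diet, and they entered the fit so that the spread was shared. Replicates carry numbers, and no label ties a number to an animal of its own. The p-values are therefore about the variation among these libraries.

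Between these ages a male mouse passes through puberty to adulthood, and the pad grows. White adipocytes store triglyceride, made from fatty acids taken up from blood or built from glucose by de novo lipogenesis, and release it again by lipolysis. Around them lie capillaries, fibroblast-like progenitors that lay down collagen, macrophages and lymphocytes, and adipocytes signal their fat content through hormones such as leptin. In bulk tissue, fewer cells of a type and less RNA per cell cannot be told apart.

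Total counts ran from 27665898 to 30820468 in the 6 libraries, and the test took in 17821 genes. Levels are CPM, a read's share of its library scaled by TMM for composition, given for replicates 1, 2 and 3 in that order. Gene positions are on GRCm38, from the GENCODE annotation. Changes are log2 fold changes ± SE of control8 over initial from edgeR's quasi-likelihood test over all 27 libraries, and a gene was called at a Benjamini-Hochberg adjusted p under 0.05. As a check of the tissue, adiponectin mRNA (Adipoq) stood at 3089, 2987 and 3693 CPM in control8 and 4479.7, 3332 and 3946 CPM in initial libraries. The thermogenic marker Ucp1 was near 0, at 0.0617, 0.123 and 0 CPM in control8 and 0.0362, 0 and 0.0672 CPM in initial libraries.

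The control8 libraries also carried transcripts of neighbouring and distant organs. Summed over 10 efferent duct and ciliated cell genes, control8 libraries held 24.1, 207 and 30.3 CPM and initial libraries 1.38, 1.74 and 1.48 CPM. Kap belongs to both this set and the kidney set below, and without Kap, a sum added after the values were seen, control8 libraries held 5.52, 207 and 24.8 CPM, with the initial sums unchanged. All control8 libraries were above all initial ones in 6 of the 10 genes, Kap among them, against 19.4% of all tested genes. Kap was lowest in replicate 2, at 0.614 CPM, where each other gene of the set was highest. Dcdc2a and Tekt1, at 0.123 and 0.278 CPM in replicate 1, did not exceed every initial library there. In replicate 1 the ciliated cell genes Foxj1 and Dnah5 were at 0.0308 CPM each. In initial libraries Foxj1 was at 0.145, 0.0986 and 0.101 CPM and Dnah5 at 0.0362, 0.0658 and 0.0672 CPM. Over 10 liver genes the sums were 82.4, 135 and 120.5 CPM in control8 and 28.7, 19.4 and 27.4 CPM in initial libraries, with albumin (Alb) at 47.1, 80.9 and 74.2 CPM in control8 and 12.5, 11.5 and 10.5 CPM in initial libraries. Over 17 kidney genes, a set added after the values were seen, they were 63.1, 13.7 and 22.2 CPM in control8 and 4.74, 7.92 and 6.72 CPM in initial libraries, and 8 of the 17 were at 0 counts in all 3 initial libraries. Efferent duct transcripts thus peaked in control8 replicate 2, kidney transcripts in replicate 1, and the liver sum was above every initial library in all 3. Lars2, a gene with ribosomal RNA-like sequence in its locus, stood at 97.5, 2258 and 122 CPM in control8 and at 2968, 2337 and 3179 CPM in initial libraries, so replicates 1 and 3 of control8 differed from the other 4 libraries in this respect too. Their part in the results was not tested beyond the values given beside them.

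**Figure D1:**
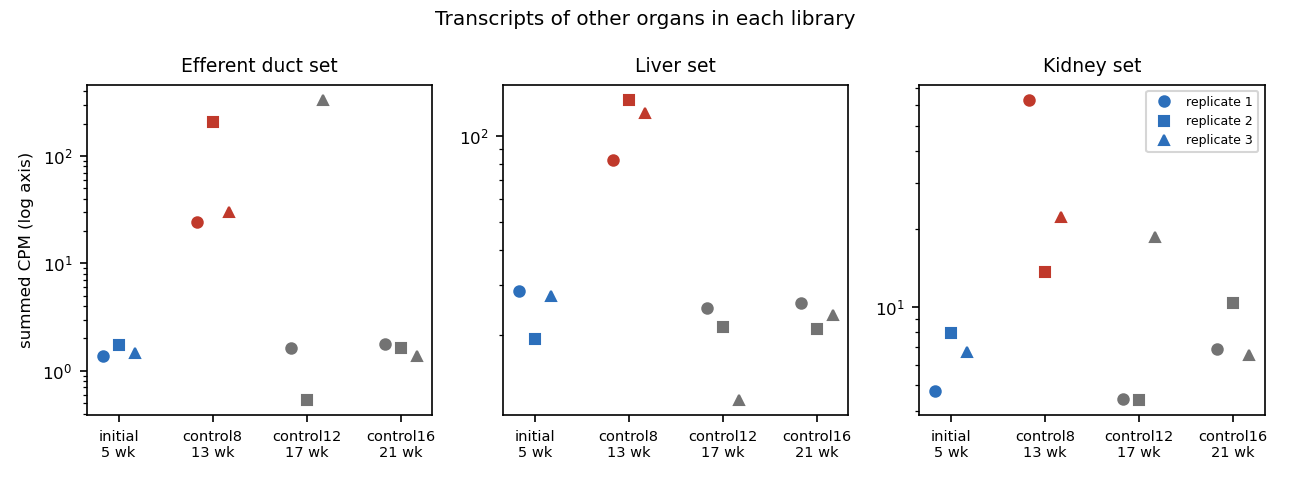
Summed CPM (log axis) of efferent duct, liver and kidney genes in each initial, control8, control12 and control16 library, 1 symbol per replicate. Kap is counted in both the efferent duct and the kidney set. The control8 sums at 13 weeks lie above the initial sums at 5 weeks in all 3 sets, though not every gene of a set does so. Efferent duct genes peak at 207 CPM in control8 replicate 2 and at 335 CPM in control12 replicate 3.

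Between 5 and 13 weeks 129 of 17821 genes were called, 0.724% of those tested, with 64 higher (0.359%) and 65 lower (0.365%) in control8. Of these, 53 and 36 changed at least 2-fold. Every called gene had non-overlapping groups, as had 38.5% of all tested genes, and the median log2 fold change over all tested genes was 0.02. The rises included the collagen VI gene Col6a6 and 3 kidney genes, of 7 tested among the 17 of that set, which was added after the values were seen. The falls included the acetyl-CoA carboxylase gene Acacb and the matrix gene Thbs2. The smallest adjusted p was 0.00223, and 2766 genes had an unadjusted p under 0.05.

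The calls depend on single libraries: without control8 replicate 1 none remained (smallest adjusted p = 0.0514, with 2232 at an unadjusted p under 0.05), without replicate 2 there were 64, and without replicate 3 there were 3, while leaving out initial replicate 1, 2 or 3 left 1, 22 and 4. With the Lars2 set (above or below 1000 CPM) as a term 60 of the 129 remained in the same direction, and within the 15 libraries of the high set, where control8 keeps replicate 2 alone, 1 gene was called. A fit of the 6 libraries alone called 1265 genes higher (7.79%) and 822 lower (5.06%) of 16230, 12.9% in all, among them 126 of the 129 in the same direction. The initial, control8, control12 and control16 groups alone, named the 4 normal-diet ages below, gave 661 higher (3.89%) and 639 lower (3.76%) of 16987, 7.65% in all. Below, the fit of the 6 libraries alone is called the second fit. Its counts are given beside those of the first, over the members it tested where these were fewer, and genes called in it alone are described by their values.

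**Figure D2:**
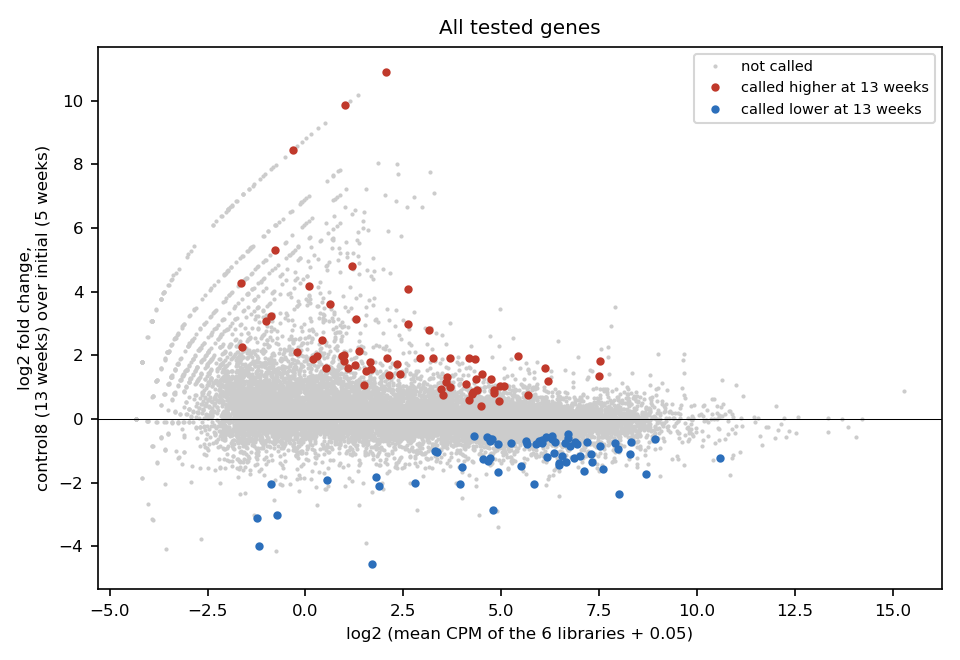
Log2 fold change of control8 (13 weeks) over initial (5 weeks) against the mean level of the 6 libraries, for all 17821 tested genes. The 64 genes called higher and the 65 called lower are coloured, and uncalled genes with fold changes as large lie mostly at low levels.

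The genes with the largest rises that also held without control8 replicate 2 encode receptors, a collagen chain, metabolic enzymes and a replication factor. This rule favours genes, among rises and falls alike, in which replicate 2 is the 13-week library nearest the 5-week level. The place of replicate 2 in the named genes is thus partly set by the rule. Cnr1, the cannabinoid receptor CB1 (chr4:33924593-33948831), was at 21.2, 10.9 and 29.2 CPM in control8 and at 4.52, 5.10 and 6.59 CPM in initial libraries, a log2 fold change 1.92 ± 0.37 (adjusted p = 0.0236). Col6a6, a chain of the microfibrillar collagen VI (chr9:105687809-105828160), was at 81.2, 37.8 and 84.9 CPM in control8 and 15.6, 17.0 and 19.6 CPM in initial libraries (log2 fold change 1.96 ± 0.43, adjusted p = 0.0358). Both were lowest, among the 13-week libraries, in replicate 2, the one with high Lars2, and still above all 5-week libraries there. Ephb6, an Eph receptor without kinase activity (chr6:41605482-41620509), stood at 15.1, 10.8 and 19.03 CPM in control8 against 3.98, 3.78 and 4.03 CPM in initial libraries (log2 fold change 1.93 ± 0.39, adjusted p = 0.0244). Plxna3, a plexin that relays semaphorin signals (chrX:74329066-74344689), stood at 14.8, 10.8 and 10.4 CPM in control8 against 3.11, 3.29 and 3.16 CPM in initial libraries (log2 fold change 1.91 ± 0.36, adjusted p = 0.0194). The 3 initial libraries lay close together for both of these receptors, and all 3 control8 libraries were above 10 CPM.

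Further rises included an insulin receptor adaptor, a transporter and regulators of cell survival and replication. Grb14, an adaptor that binds and inhibits the insulin receptor (chr2:64912476-65024987), had 43.8, 25.4 and 26.1 CPM in control8 and 6.84, 9.44 and 9.38 CPM in initial libraries (log2 fold change 1.89 ± 0.41, adjusted p = 0.0356). Slc5a3, the sodium-coupled myo-inositol transporter (chr16:92058322-92087473), had 116, 66.1 and 131 CPM in control8 and 36.2, 37.3 and 29.9 CPM in initial libraries (log2 fold change 1.60 ± 0.33, adjusted p = 0.0299). Azin2, an antizyme inhibitor that acts on polyamine metabolism (chr4:128930233-128962442), had 40.1, 30.1 and 42.3 CPM in control8 and 13.9, 16.4 and 16.7 CPM in initial libraries (log2 fold change 1.26 ± 0.28, adjusted p = 0.041). In all 3 the lowest control8 value was that of replicate 2. Eepd1, an endonuclease/exonuclease/phosphatase family protein (chr9:25481547-25604110), was at 315, 209 and 261 CPM in control8 and 109, 92.4 and 105 CPM in initial libraries (log2 fold change 1.36 ± 0.29, adjusted p = 0.0305). Nol3, an inhibitor of apoptosis with a CARD domain (chr8:105276140-105281939), was at 29.0, 23.6 and 32.5 CPM in control8 and 6.59, 9.37 and 6.45 CPM in initial libraries (log2 fold change 1.92 ± 0.40, adjusted p = 0.0299). Gins2, a subunit of the GINS complex of the replication helicase (chr8:120578633-120589304), was at 7.93, 6.17 and 8.73 CPM in control8 and 2.32, 3.45 and 2.86 CPM in initial libraries (log2 fold change 1.40 ± 0.25, adjusted p = 0.0139).

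Kap and Pcbd1 had the largest fold changes among these 12 rises, and Kap is itself a member of the kidney set. Kap, the kidney androgen-regulated protein (chr6:133849851-133853762), was at 18.6, 0.614 and 5.57 CPM in control8 and at 0 counts in all 3 initial libraries, so it was at least 241.5-fold higher against a floor of 3 counts over the initial group (adjusted p = 0.0358). It was highest in replicate 1 and lowest in replicate 2. The kidney sum, from a set added after the values were seen, includes Kap, Slc34a1 and Tmem27. Its order over the replicates therefore partly repeats theirs. Among the other kidney genes, 2 with 0 counts at 5 weeks were called. They are the phosphate transporter Slc34a1 and Tmem27, a membrane protein gene of kidney tubules. Slc34a1 was at 9.35, 0.399 and 2.11 CPM in control8 (at least 115.7-fold, adjusted p = 0.0454). Tmem27 was at 2.93, 1.04 and 0.504 CPM in control8 (at least 43.7-fold, adjusted p = 0.0418, and adjusted p = 0.0674 without control8 replicate 2). Both were also highest in replicate 1. The second fit called Tmem27 (adjusted p = 0.0321) but neither Kap (adjusted p = 0.0538) nor Slc34a1 (adjusted p = 0.0583). The fit of the 4 normal-diet ages called Kap (adjusted p = 0.0285) but neither Slc34a1 (adjusted p = 0.0661) nor Tmem27 (adjusted p = 0.0656). Pcbd1, a dehydratase of pterin cofactor recycling that also binds HNF1 factors (chr10:61089331-61094324), was at 16.0, 14.4 and 16.5 CPM in control8 and 1.77, 3.25 and 1.68 CPM in initial libraries (log2 fold change 2.80 ± 0.57, adjusted p = 0.027). Pcbd1 was close to even across the control8 replicates, where the kidney sum was highest in replicate 1. The liver sum was 82.4, 135 and 120.5 CPM in control8 and 28.7, 19.4 and 27.4 CPM in initial libraries. The part of other organs in the Pcbd1 level was not tested. Pcbd1 stood at 25.0, 21.2 and 16.8 CPM at 17 weeks and 11.1, 10.5 and 34.7 CPM at 21 weeks.

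Genes with the largest falls include developmental and signalling regulators. Tbx3, a T-box transcription factor of limb and mammary development (chr5:119670669-119684724), was at 12.3, 21.5 and 9.87 CPM in control8 and 47.0, 48.7 and 41.7 CPM in initial libraries, and fell by 1.65 ± 0.37 on the log2 scale (adjusted p = 0.0418). Pde4d, a phosphodiesterase that breaks down cAMP (chr13:108449948-109953461), was at 6.66, 9.09 and 8.86 CPM in control8 and 21.6, 24.2 and 24.9 CPM in initial libraries (log2 fold change -1.52 ± 0.29, adjusted p = 0.0209). Mapkbp1, a scaffold that binds JNK kinases (chr2:119972699-120027408), was at 47.8, 53.6 and 46.6 CPM in control8 and 129, 121 and 134 CPM in initial libraries (log2 fold change -1.37 ± 0.22, adjusted p = 0.00964). For each of these regulators control8 replicate 2 was the highest 13-week library and still below every 5-week one. Rnf125, a ubiquitin ligase on chromosome 18, was at 18.1, 22.9 and 26.5 CPM in control8 and 99.8, 78.5 and 97.9 CPM in initial libraries (log2 fold change -2.03 ± 0.36, adjusted p = 0.015). Usp43, a deubiquitinating enzyme (chr11:67854523-67922153), was at 2.04, 4.48 and 1.64 CPM in control8 and 11.8, 11.1 and 10.2 CPM in initial libraries (log2 fold change -2.01 ± 0.42, adjusted p = 0.0305).

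The remaining falls concern membranes, transport and chromatin. Fam134b, a receptor for autophagy of the endoplasmic reticulum (chr15:25843180-25973687), had 5.21, 8.29 and 4.36 CPM in control8 and 21.4, 27.4 and 25.0 CPM in initial libraries (log2 fold change -2.04 ± 0.40, adjusted p = 0.0236). Ppap2a, a phosphatase of lipid phosphates (chr13:112800792-112867894), had 38.2, 59.5 and 32.4 CPM in control8 and 90.5, 114 and 96.5 CPM in initial libraries (log2 fold change -1.21 ± 0.23, adjusted p = 0.0194). Slc25a34, a member of the mitochondrial carrier family (chr4:141618824-141623821), had 1.08, 2.24 and 0.739 CPM in control8 and 4.74, 4.80 and 8.00 CPM in initial libraries (log2 fold change -2.11 ± 0.49, adjusted p = 0.0457). In all 3, replicate 2 was the highest of the control8 libraries. Tcn2, the carrier of vitamin B12 in plasma (chr11:3917192-3932159), was at 222, 185 and 190.2 CPM in control8 and 420.1, 400.4 and 459 CPM in initial libraries (log2 fold change -1.10 ± 0.17, adjusted p = 0.00795). Abcb1b, a multidrug efflux pump with the near copy Abcb1a (chr5:8798147-8866315), was at 23.2, 29.8 and 19.6 CPM in control8 and 64.3, 68.7 and 68.4 CPM in initial libraries (log2 fold change -1.47 ± 0.29, adjusted p = 0.0236). Fam20a, a pseudokinase partner of the secretory kinase Fam20c (chr11:109669749-109722279), was at 16.3, 16.5 and 10.4 CPM in control8 and 35.5, 37.6 and 34.4 CPM in initial libraries (log2 fold change -1.32 ± 0.26, adjusted p = 0.0244). Hist1h1c, a linker histone gene (chr13:23738808-23740367), was at 67.3, 77.5 and 61.9 CPM in control8 and 166, 183 and 141 CPM in initial libraries (log2 fold change -1.24 ± 0.22, adjusted p = 0.015).

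**Figure D3:**
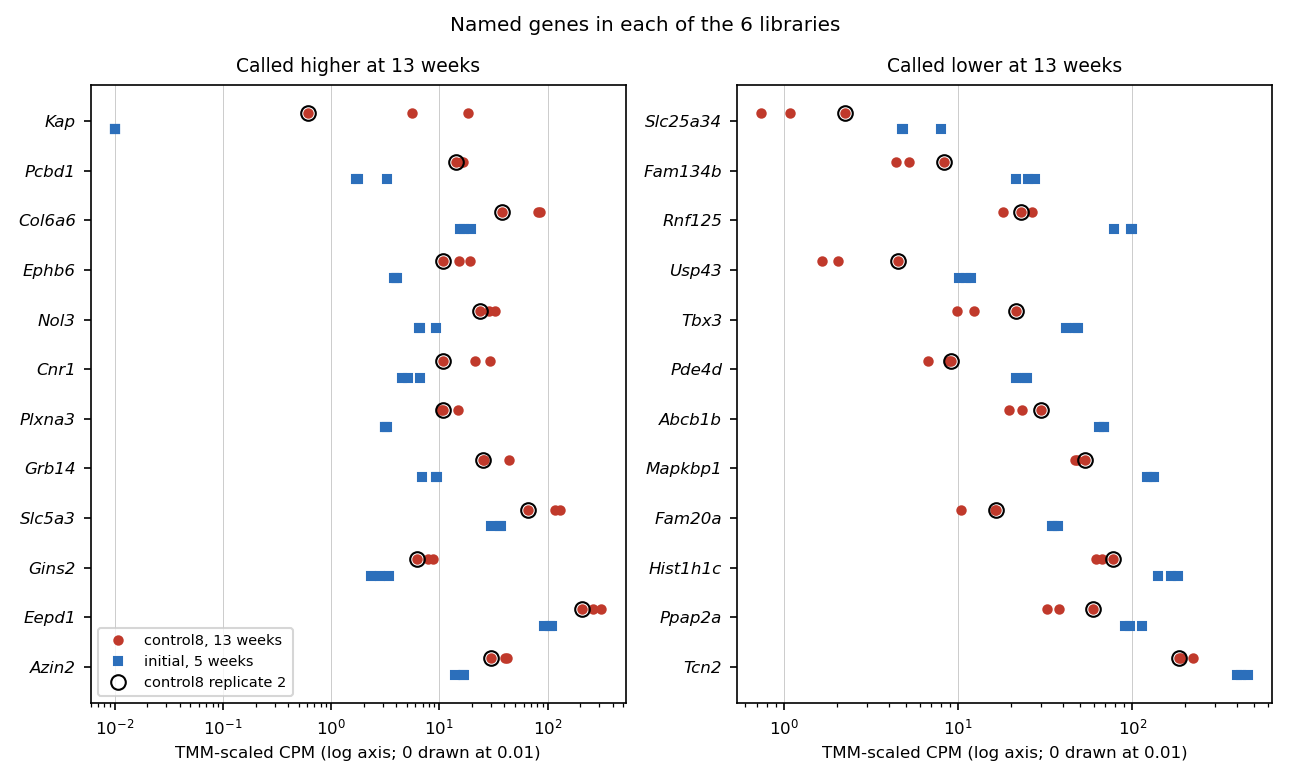
Level of each named gene in the 3 control8 libraries (13 weeks, circles) and the 3 initial libraries (5 weeks, squares), on a log axis, with control8 replicate 2 ringed. The groups do not overlap for any of the 24 genes, and replicate 2 is the control8 library nearest to the initial ones for several of them, such as Cnr1, Col6a6 and Usp43. Genes were named only if still called without replicate 2, which favours this position.

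Other called genes, chosen after their values were seen, encode parts of lipid, peroxisome and hormone pathways. Crls1, the cardiolipin synthase of mitochondria, was at 59.1, 59.7 and 83.2 CPM in control8 and 237, 165 and 223 CPM in initial libraries and fell by 1.63 ± 0.37 on the log2 scale (adjusted p = 0.0418). Pnpla7, a lysophospholipase, was at 61.6, 51.5 and 57.0 CPM in control8 and 147, 153 and 137 CPM in initial libraries (log2 fold change -1.36 ± 0.27, adjusted p = 0.0244). Pex5, the import receptor of peroxisomes, was at 89.4, 88.4 and 89.7 CPM in control8 and 157, 148 and 157 CPM in initial libraries (log2 fold change -0.79 ± 0.14, adjusted p = 0.0152). All of these lipid and organelle genes were lower at 13 weeks without overlap, and without control8 replicate 2 none of the 3 was called (adjusted p = 0.127 for Crls1, adjusted p = 0.0782 for Pnpla7 and adjusted p = 0.0513 for Pex5).

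Adcyap1r1, the receptor of the peptide PACAP, was at 87.7, 52.9 and 151 CPM in control8 and 239.7, 308 and 323 CPM in initial libraries (log2 fold change -1.58 ± 0.35, adjusted p = 0.0378). Asns, the asparagine synthetase, was at 71.5, 61.6 and 105 CPM in control8 and 203, 152 and 178 CPM in initial libraries (log2 fold change -1.16 ± 0.26, adjusted p = 0.0378). These 2 genes were also lower in all 13-week libraries, with replicate 2 the lowest of them. Of the rises, Tnfaip3, an inhibitor of NF-kappa-B signalling, was at 25.1, 22.3 and 38.6 CPM in control8 and 10.2, 12.8 and 13.3 CPM in initial libraries (log2 fold change 1.24 ± 0.25, adjusted p = 0.0256). Slc16a7, a monocarboxylate transporter, was at 32.5, 30.2 and 47.3 CPM in control8 and 19.9, 17.8 and 21.5 CPM in initial libraries (log2 fold change 0.89 ± 0.18, adjusted p = 0.0256). Cds1, a CDP-diacylglycerol synthase, was at 13.8, 25.0 and 13.3 CPM in control8 and 6.51, 7.79 and 6.59 CPM in initial libraries (log2 fold change 1.32 ± 0.28, adjusted p = 0.0305). Each of these 3 was higher in all 13-week libraries, and among normal-diet libraries Cds1 was highest in those with the most efferent duct transcripts, at 25.0 CPM in control8 replicate 2 and 31.6 CPM in control12 replicate 3. Tert, the catalytic subunit of telomerase, was low at 1.85, 1.84 and 1.95 CPM in control8 and 0.362, 0.526 and 0.538 CPM in initial libraries (log2 fold change 1.97 ± 0.43, adjusted p = 0.0378). Cyp4a10 and Cyp4a14, fatty acid hydroxylases of liver and kidney with near-identical sequences, were low but higher in all 13-week libraries. Cyp4a10 was at 3.30, 2.55 and 2.38 CPM in control8 and 0.434, 0.164 and 0.0672 CPM in initial libraries (log2 fold change 3.61 ± 0.79, adjusted p = 0.0369). Cyp4a14 was at 3.79, 5.65 and 3.52 CPM in control8 and 0.398, 0.0658 and 0 CPM in initial libraries (log2 fold change 4.79 ± 1.09, adjusted p = 0.0424), and the 13-week libraries of both are those with the raised liver and kidney sums. Without control8 replicate 2, Tnfaip3 and Slc16a7 were still called, and the others missed the threshold, with adjusted p = 0.127 for Adcyap1r1, adjusted p = 0.132 for Asns, adjusted p = 0.128 for Cds1, adjusted p = 0.0735 for Tert, adjusted p = 0.0666 for Cyp4a10 and adjusted p = 0.0917 for Cyp4a14.

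Most de novo lipogenesis genes were called higher at 13 weeks in the second fit alone, while the enzyme gene Acacb fell in both fits. Acacb, the acetyl-CoA carboxylase isoform at mitochondria whose product restrains fatty acid oxidation, fell by 1.72 ± 0.40 on the log2 scale (adjusted p = 0.0471, and adjusted p = 0.127 without control8 replicate 2), with 218, 192 and 170.5 CPM in control8 against 702, 632 and 586 CPM in initial libraries. It was the only called member of 21 de novo lipogenesis genes, a list with a median log2 fold change of 0.65. The second fit called 15 of them higher and 2 lower, against 7.79% and 5.06% of all its genes. Fasn, the fatty acid synthase gene, had 1459, 1234 and 1265 CPM in control8 and 307, 303 and 344 CPM in initial libraries (log2 fold change 2.05 ± 1.01, adjusted p = 0.337 over 27 libraries and adjusted p = 0.00123 over 6). Pnpla3, a lipid droplet acyltransferase and lipase induced with lipogenesis, had 384, 252 and 413 CPM in control8 and 84.0, 58.3 and 76.1 CPM in initial libraries (log2 fold change 2.26 ± 0.74, adjusted p = 0.139 and adjusted p = 0.00414). Every 13-week library was above 2 times the highest 5-week one for both genes, which passed the test over 6 libraries and missed it over 27. The stearoyl-CoA desaturase gene Scd1 was at 53287, 38896 and 61459 CPM in control8 and 24045, 30447 and 29928 CPM in initial libraries (log2 fold change 0.86 ± 0.60, adjusted p = 0.518). The 2 groups did not overlap for Scd1 either. Acly, which makes cytosolic acetyl-CoA, was at 188, 197 and 185 CPM in control8 and 152, 159 and 159 CPM in initial libraries (log2 fold change 0.28 ± 0.88, adjusted p = 0.901). Elovl3, a fatty acid elongase, was at 0.555, 0.983 and 0.772 CPM in control8 and 0, 0.0329 and 0.168 CPM in initial libraries (log2 fold change 3.42 ± 1.49, adjusted p = 0.269). Both lay higher at 13 weeks, though Elovl3 rests on few reads. Elovl5, an elongase of polyunsaturated fatty acids, was at 74.0, 105 and 65.4 CPM in control8 and 130.2, 132 and 129.6 CPM in initial libraries (log2 fold change -0.68 ± 0.27, adjusted p = 0.223). Elovl5 lay below the 5-week libraries in all 3. Of 24 cholesterol synthesis genes none was called in the first fit and 6 were called higher in the second, with a median of 0.21. The sterol enzyme Nsdhl was at 21.9, 25.3 and 22.8 CPM in control8 and 11.8, 12.8 and 12.4 CPM in initial libraries (log2 fold change 0.92 ± 0.58, adjusted p = 0.47).

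Genes of fatty acid uptake and of branched-chain amino acid breakdown were more often lower than higher among the calls of the second fit. Of 15 fatty acid uptake genes none was called. The second fit called 4 of them lower and 1 higher, against 5.06% and 7.79% of all its genes. Slc27a1, the insulin-responsive fatty acid transporter FATP1, had 837, 646 and 858 CPM in control8 and 2047, 1678 and 2044 CPM in initial libraries (log2 fold change -1.30 ± 0.33, adjusted p = 0.0709). Pnpla2, the adipose triglyceride lipase, had 2386, 2185 and 2488 CPM in control8 and 4593, 3926 and 3975 CPM in initial libraries (log2 fold change -0.82 ± 0.36, adjusted p = 0.272). Each lay lower in all 13-week libraries. Of 23 lipolysis and droplet genes tested in the second fit it called 2 lower and 5 higher, and of 16 triglyceride synthesis genes 4 lower and 5 higher, with none called in the first. Aqp7, the glycerol channel of adipocytes, was at 168, 199.6 and 146 CPM in control8 and 338, 314 and 301 CPM in initial libraries (log2 fold change -0.89 ± 0.27, adjusted p = 0.126). Pck1, the glyceroneogenic enzyme, was at 3316, 3296 and 3124 CPM in control8 and 5447, 4589 and 4567 CPM in initial libraries (log2 fold change -0.59 ± 0.57, adjusted p = 0.659). Both were lower in every 13-week library. In branched-chain amino acid breakdown 1 of 25 genes was called: Ppm1k, the phosphatase that activates the branched-chain ketoacid dehydrogenase, fell by 1.22 ± 0.28 on the log2 scale, with 15.02, 13.5 and 18.8 CPM in control8 and 42.0, 31.3 and 37.2 CPM in initial libraries (adjusted p = 0.0454, and adjusted p = 0.136 without control8 replicate 2). The second fit called 5 members lower and 1 higher. Dbt, the E2 subunit of that dehydrogenase, was at 64.0, 60.2 and 93.1 CPM in control8 and 152, 108 and 153 CPM in initial libraries (log2 fold change -0.93 ± 0.23, adjusted p = 0.0681). Of 26 beta-oxidation genes none was called in the first fit and 2 were lower in the second, which called 5.06% of all genes lower. Ehhadh, a peroxisomal enzyme of the pathway, was one of these, at 37.6, 32.4 and 37.4 CPM in control8 and 74.4, 80.0 and 73.1 CPM in initial libraries (log2 fold change -1.08 ± 0.27, adjusted p = 0.06). A further peroxisomal gene, catalase (Cat), chosen after its values were seen, fell by 1.21 ± 0.26 on the log2 scale, with 887, 838 and 1059 CPM in control8 and 1970.3, 1856 and 2632 CPM in initial libraries (adjusted p = 0.0319, and adjusted p = 0.106 without control8 replicate 2). In contrast, none of 23 citrate cycle genes and none of 13 transcripts of the mitochondrial genome was called in either fit, and their medians were 0.03 and 0.05.

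Leptin mRNA and 8 of 14 genes of pad growth stood higher at 13 weeks in the second fit, and none of them passed the threshold over 27 libraries. Leptin mRNA (Lep), which follows adipocyte fat content, was at 952, 715 and 817 CPM in control8 and 204, 258 and 137 CPM in initial libraries (log2 fold change 2.05 ± 0.66, adjusted p = 0.138 over 27 libraries and adjusted p = 0.00582 over 6). Every 13-week library held more than 2 times the leptin mRNA of the highest 5-week one. Of 14 genes known from expansion of fat pads none was called, and the median was 0.67. The second fit called 8 of them higher and 3 lower, against 7.79% and 5.06% of all its genes. Mest, an imprinted gene that marks expanding adipocytes, varied widely, at 608, 407 and 172 CPM in control8 and 33.8, 94.0 and 30.5 CPM in initial libraries (log2 fold change 2.91 ± 0.94, adjusted p = 0.139). Npr3, the natriuretic peptide clearance receptor, was steadier, at 1394, 1107 and 1257 CPM in control8 and 326, 415 and 288 CPM in initial libraries (log2 fold change 1.87 ± 0.53, adjusted p = 0.0997). The caveolar coat gene Cav1 was at 2712, 2338 and 3197 CPM in control8 and 1282, 1348 and 1291 CPM in initial libraries (log2 fold change 1.07 ± 0.31, adjusted p = 0.105).

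The secreted growth factor Bmp3 was at 45.1, 44.8 and 39.9 CPM in control8 and 14.0, 13.9 and 5.58 CPM in initial libraries (log2 fold change 1.95 ± 0.65, adjusted p = 0.145). The Wnt inhibitor Sfrp5 was at 156, 172 and 116 CPM in control8 and 53.3, 80.6 and 19.02 CPM in initial libraries (log2 fold change 1.54 ± 0.95, adjusted p = 0.455). Both secreted signals were higher in all 13-week libraries. Of 19 adipokine genes, Lep among them, none was called, and the median was 0.04. In the second fit 3 were higher and 2 lower, against 7.79% and 5.06% of all its genes. Adipoq overlapped between the ages (log2 fold change -0.27 ± 0.43, adjusted p = 0.806). Control8 replicate 1 held less Adipoq than any 5-week library, as did replicate 2. The adipsin gene Cfd was at 9057, 6307 and 11360.4 CPM in control8 and 14414, 7904 and 13368 CPM in initial libraries (log2 fold change -0.42 ± 0.64, adjusted p = 0.793). The resistin gene Retn was at 996, 822 and 1488 CPM in control8 and 996, 883 and 1129 CPM in initial libraries (log2 fold change 0.14 ± 0.51, adjusted p = 0.92). Of 24 adipocyte identity genes none was called, and the second fit called 5 higher and 4 lower.

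A single gene was called among the hormone axis lists, an enzyme of glucocorticoid breakdown. Hsd11b2, which inactivates glucocorticoids, was low but fell by 1.93 ± 0.42 on the log2 scale. It was at 0.648, 0.584 and 0.537 CPM in control8 and 2.14, 2.60 and 2.05 CPM in initial libraries (adjusted p = 0.0361, and adjusted p = 0.101 without control8 replicate 2). Of 19 genes in the glucocorticoid axis it was the only call. The second fit called 4 of the list lower and 1 higher, against 5.06% and 7.79% of all its genes. Sgk1, a kinase induced by corticosteroids, was at 109, 155 and 102 CPM in control8 and 242, 289 and 303 CPM in initial libraries (log2 fold change -1.19 ± 0.38, adjusted p = 0.136). Igfbp3, which carries insulin-like growth factors, was at 25.2, 41.3 and 15.5 CPM in control8 and 112, 124 and 109 CPM in initial libraries (log2 fold change -2.07 ± 0.51, adjusted p = 0.06). All 3 lay lower in every 13-week library. None of 26 growth hormone and IGF genes was called. Igf1 was at 275, 241 and 283 CPM in control8 and 216, 197 and 218 CPM in initial libraries (log2 fold change 0.34 ± 0.23, adjusted p = 0.504). Igf2 was at 11.7, 49.7 and 7.82 CPM in control8 and 57.7, 86.5 and 84.0 CPM in initial libraries (log2 fold change -1.72 ± 0.84, adjusted p = 0.328). Igf2 was highest, among the 13-week libraries, in replicate 2. Among 23 imprinted growth genes none was called, and of 21 tested in it the second fit called 2 higher and 4 lower. The zinc finger gene Zim1 was at 5.95, 7.86 and 7.52 CPM in control8 and 45.5, 59.9 and 52.0 CPM in initial libraries (log2 fold change -2.88 ± 0.87, adjusted p = 0.119), every 13-week library being below every 5-week one. H19, an imprinted RNA of fetal growth, was at 1.02, 0.829 and 0.739 CPM in control8 and 0.507, 0.986 and 1.04 CPM in initial libraries (log2 fold change 0.03 ± 0.60, adjusted p = 0.99). Dlk1, which marks preadipocytes, was at 0.432, 2.12 and 0.369 CPM in control8 and 0.832, 0.888 and 0.807 CPM in initial libraries (log2 fold change 0.21 ± 0.99, adjusted p = 0.94). Both RNAs overlapped between the ages, and Dlk1 was highest in the library with the most efferent duct transcripts.

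The oestrogen receptor gene Esr1 was at 27.4, 52.3 and 35.9 CPM in control8 and 46.8, 38.3 and 43.7 CPM in initial libraries (log2 fold change -0.16 ± 0.33, adjusted p = 0.854), and none of 19 sex steroid genes was called. Esr1 overlapped between the ages. In insulin and glucose handling Grb14 was the 1 call of 23 genes. The second fit called Grb14 again higher and 6 lower, against 7.79% and 5.06% of all its genes. Among the lower ones, the insulin receptor gene Insr was at 198, 185 and 209.7 CPM in control8 and 276, 248 and 277 CPM in initial libraries (log2 fold change -0.43 ± 0.18, adjusted p = 0.25). The related adaptor Grb10 was at 89.4, 90.8 and 81.1 CPM in control8 and 146, 171 and 141 CPM in initial libraries (log2 fold change -0.81 ± 0.23, adjusted p = 0.0997).

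**Figure D4:**
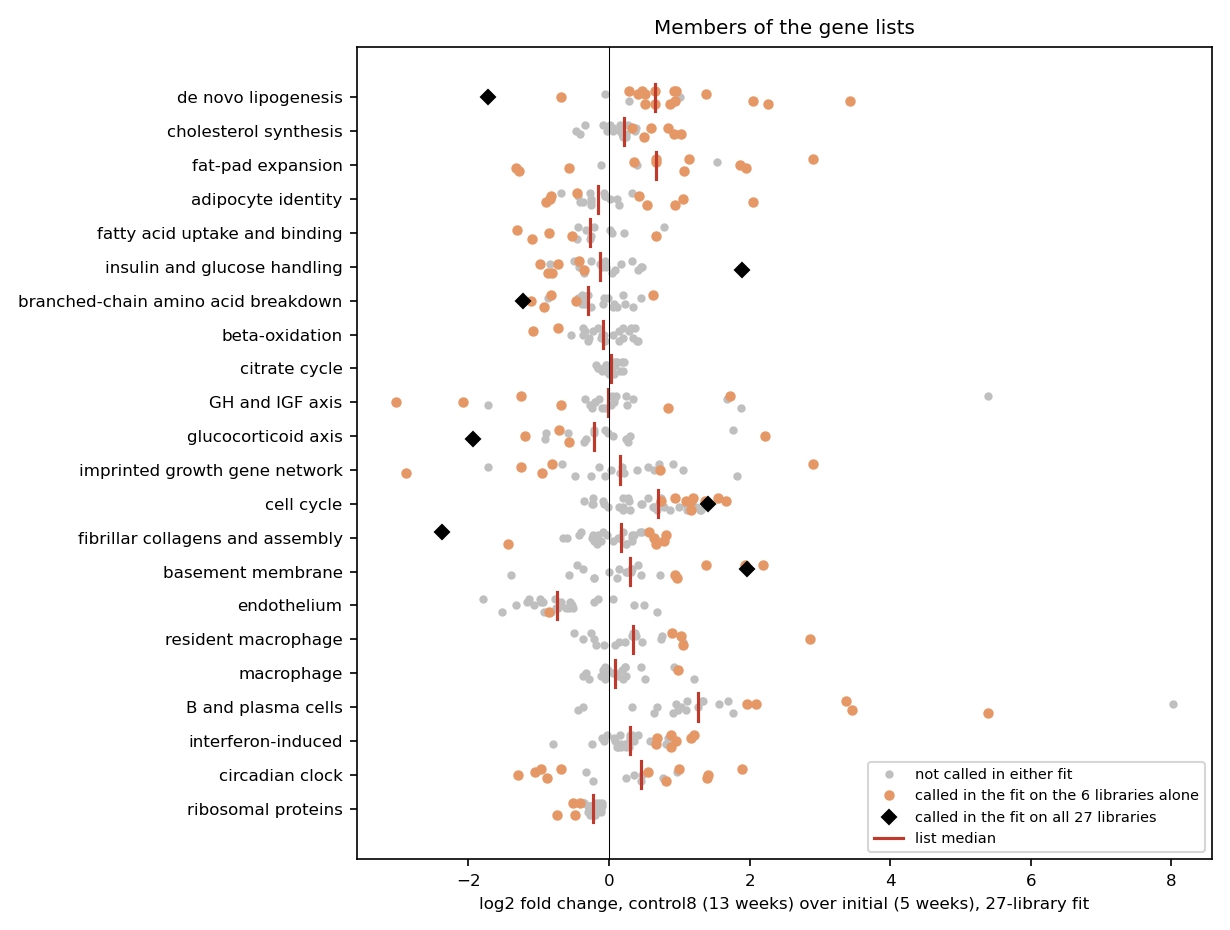
Log2 fold change of control8 (13 weeks) over initial (5 weeks) for each tested member of 22 gene lists, with the list median as a bar. Members called over all 27 libraries are black diamonds, such as Acacb at -1.72 and Thbs2 at -2.37, and members called over the 6 libraries alone are orange, 15 of them higher in de novo lipogenesis.

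In the extracellular matrix 1 gene of the fibril assembly list fell and 1 of the basement membrane list rose. Thbs2, thrombospondin 2, which restrains angiogenesis and collagen fibril growth, fell by 2.37 ± 0.43 on the log2 scale (adjusted p = 0.015), with 70.0, 76.3 and 105 CPM in control8 and 434, 446 and 417 CPM in initial libraries. Without control8 replicate 2 it missed the threshold (adjusted p = 0.0506). Of 34 genes of fibrillar collagens and their assembly, Thbs2 was the only call. Col1a1 was at 324, 519 and 252 CPM in control8 and 321, 529 and 309.6 CPM in initial libraries (log2 fold change -0.08 ± 0.32, adjusted p = 0.922). Col3a1 was at 1667, 1677 and 1680.3 CPM in control8 and 935, 1362 and 929 CPM in initial libraries (log2 fold change 0.64 ± 0.36, adjusted p = 0.404), and the second fit called 5 higher and 2 lower. Of 24 genes on the basement membrane list Col6a6 was the only call, and 6 were higher in the second fit. Over all its genes the second fit called 7.79% higher and 5.06% lower. Col15a1, a collagen of the basement membrane zone, was at 361, 369 and 274 CPM in control8 and 74.2, 112 and 76.8 CPM in initial libraries (log2 fold change 1.94 ± 0.51, adjusted p = 0.0747). The elastin gene Eln was at 185, 265 and 87.4 CPM in control8 and 349.8, 540.0 and 409 CPM in initial libraries (log2 fold change -1.27 ± 0.44, adjusted p = 0.163), lower in each, and none of 23 elastic fibre genes was called. Serpine2, an inhibitor of thrombin and urokinase chosen after its values were seen, rose, at 105, 90.5 and 110.5 CPM in control8 and 37.2, 45.0 and 52.2 CPM in initial libraries (log2 fold change 1.19 ± 0.19, adjusted p = 0.00964).

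Cell cycle genes were higher at 13 weeks more often than lower. Of 40 tested, 1 was called higher (Gins2) and none lower, and the median was 0.70. The second fit called 10 higher and 0 lower, against 7.79% and 5.06% of all its genes. In 23 of the 40 all control8 libraries were above all initial ones and in none the reverse, against 19.4% and 19.1% of all tested genes. Mki67, the proliferation antigen Ki-67, had 12.2, 13.9 and 12.1 CPM in control8 and 3.26, 6.77 and 3.02 CPM in initial libraries (log2 fold change 1.55 ± 0.39, adjusted p = 0.0661). Top2a, the topoisomerase of dividing cells, had 9.78, 11.1 and 7.96 CPM in control8 and 3.08, 5.59 and 2.49 CPM in initial libraries (log2 fold change 1.37 ± 0.39, adjusted p = 0.103). Cdca8, a subunit of the chromosomal passenger complex, had 2.37, 2.18 and 2.35 CPM in control8 and 0.905, 1.48 and 0.672 CPM in initial libraries (log2 fold change 1.17 ± 0.35, adjusted p = 0.12). Initial replicate 2 was the highest of the 5-week libraries for all 3 genes and still below every 13-week library.

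Promoters of mitotic genes are known to carry CCAAT boxes, bound by NF-Y, and the cell cycle homology region TTTGAA, bound by the DREAM and MuvB complexes, and they are shown here because these genes stood higher together. In RefSeq promoters of GRCm38.p6, 250 bases before to 50 after the start site, CCAAT was found on either strand in 28 of 33 cell cycle genes with an entry (84.8%) against 41.1% of all 27025 genes. Of the clock genes described below, 13 of 16 with an entry held it (81.2%). TTTGAA was found on either strand in 19 of 33 (57.6%) against 20.2%, and in 0 of 16 clock genes, and the E2F motif TTTCCCGC on either strand in 2 of 33 (6.06%) against 1.24%. No motif contains another of the 3, and a match is a description and not a bound site. The Mki67 promoter (chr7:135716330-135716629, minus strand) and the Top2a promoter (chr11:99024140-99024439, minus strand) are printed 5′ to 3′, with both kinds of motif, on either strand, in capitals.
Mki67: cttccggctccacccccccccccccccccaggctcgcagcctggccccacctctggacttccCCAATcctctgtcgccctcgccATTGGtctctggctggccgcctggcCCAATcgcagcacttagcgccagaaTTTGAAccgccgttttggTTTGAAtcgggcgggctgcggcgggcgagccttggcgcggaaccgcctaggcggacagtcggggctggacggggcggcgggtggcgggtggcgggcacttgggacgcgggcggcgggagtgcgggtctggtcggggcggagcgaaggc
Top2a: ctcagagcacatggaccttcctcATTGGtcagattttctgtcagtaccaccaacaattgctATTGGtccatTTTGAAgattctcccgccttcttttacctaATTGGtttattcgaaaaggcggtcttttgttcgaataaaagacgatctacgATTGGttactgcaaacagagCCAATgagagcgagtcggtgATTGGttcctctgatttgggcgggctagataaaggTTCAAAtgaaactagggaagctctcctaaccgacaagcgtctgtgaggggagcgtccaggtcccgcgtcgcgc
Mki67 held 5 matches, with TTTGAA at -116 and -98 from the start site, and Top2a held 8, of which 6 were CCAAT boxes. Gins2 has no entry in this table.

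None of the genes on the macrophage, lymphocyte or mast cell lists was called, and antibody and mast cell genes had the widest differences among them. Outside the lists the Fc receptor-like gene Fcrls, chosen after its values were seen, was called higher. It was at 35.7, 32.8 and 39.5 CPM in control8 and 20.2, 23.1 and 18.0 CPM in initial libraries (log2 fold change 0.82 ± 0.19, adjusted p = 0.0455). Without control8 replicate 2 it missed the threshold (adjusted p = 0.0735). Of 25 macrophage genes the second fit called 1 higher and 0 lower, against 7.79% and 5.06% of all its genes. The pan-macrophage marker Emr1 (F4/80) was at 66.0, 62.0 and 79.6 CPM in control8 and 46.0, 82.5 and 48.7 CPM in initial libraries (log2 fold change 0.23 ± 0.38, adjusted p = 0.812). Trem2, of lipid-associated macrophages, was at 8.98, 10.4 and 14.6 CPM in control8 and 5.50, 15.7 and 5.68 CPM in initial libraries (log2 fold change 0.33 ± 0.64, adjusted p = 0.841). The scavenger receptor Cd163 was at 118, 87.0 and 115 CPM in control8 and 114, 154 and 116 CPM in initial libraries (log2 fold change -0.26 ± 0.46, adjusted p = 0.823). These 3 markers overlapped between the ages. Of 21 resident macrophage genes none was called and 4 were higher in the second fit, with the chemokine Ccl8 at 15.6, 10.4 and 17.6 CPM in control8 and 0.905, 3.58 and 1.48 CPM in initial libraries (log2 fold change 2.86 ± 0.85, adjusted p = 0.115). Of 22 genes of macrophages that take up lipid the first fit called none, and the second fit called 2 higher and 2 lower. Abcg1, a cholesterol exporter of that list also known from adipocytes, was at 40.7, 49.2 and 30.1 CPM in control8 and 126, 139.6 and 104 CPM in initial libraries (log2 fold change -1.62 ± 0.45, adjusted p = 0.0921).

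Genes of B and plasma cells had the highest median log2 fold change of the immune lists at 1.27 (1.64 without control8 replicate 2), though none of 23 was called. The second fit called 5 of the 20 it tested higher, against 7.79% of all its genes. Igkc, the kappa light chain constant region, was at 43.9, 33.5 and 95.9 CPM in control8 and 4.67, 5.56 and 5.61 CPM in initial libraries (log2 fold change 3.45 ± 0.96, adjusted p = 0.0961). Igj, the joining chain of secreted antibodies, was at 7.59, 9.55 and 20.2 CPM in control8 and 1.19, 0.723 and 1.68 CPM in initial libraries (log2 fold change 3.37 ± 0.91, adjusted p = 0.0878). Igkc and Igj were highest in replicate 3. Igha, the IgA heavy chain, was at 0.740, 4.82 and 0.671 CPM in control8 and 0, 0.0986 and 0.0336 CPM in initial libraries (log2 fold change 5.40 ± 1.30, adjusted p = 0.0545). Each of these antibody genes was higher in all 13-week libraries. The lymph node addressin Madcam1, the 1 called gene of 9 lymph node genes, fell by 3.11 ± 0.71 on the log2 scale, though it was under 1 CPM throughout, at 0.0308, 0.123 and 0.0671 CPM in control8 and 0.615, 0.690 and 0.706 CPM in initial libraries (adjusted p = 0.0425, and adjusted p = 0.0782 without control8 replicate 2). The lymph node list had a median log2 fold change of 0.67, and its summed level was 64.3, 73.0 and 52.9 CPM in control8 and 26.3, 38.9 and 38.2 CPM in initial libraries. The lymph node sum was thus also higher in all 13-week libraries, and its part in the antibody gene values was not tested.

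Mast cell genes had a median log2 fold change of 1.16 over 12 genes, with none called and 5 higher in the second fit. The fit of the 4 normal-diet ages called 0 of them, while 11 had all control8 libraries above all initial ones and 1 the reverse, against 19.4% and 19.1% of all tested genes. The mast cell protease Mcpt4 was at 14.6, 10.6 and 19.7 CPM in control8 and 5.75, 5.06 and 5.75 CPM in initial libraries (log2 fold change 1.44 ± 0.73, adjusted p = 0.353). Over all its genes the second fit called 7.79% higher. Of 34 interferon-induced genes none was called and 7 were higher in the second fit. Ifit3 was at 26.5, 17.5 and 23.8 CPM in control8 and 11.4, 10.3 and 13.4 CPM in initial libraries (log2 fold change 0.95 ± 0.32, adjusted p = 0.157), with non-overlapping groups. Of 20 MHC class II and dendritic genes 3 were higher in the second fit and none was called in the first, and of 22 complement genes 4 were. Of 32 T and NK cell genes none was called in the first fit, nor any of the 29 tested in the second.

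Endothelial genes had a negative median log2 fold change, with a wide spread among the control8 libraries. Of 28 endothelial genes none was called, and 1 was lower in the second fit, against 5.06% of all its genes. The list median was -0.74, or -1.14 without control8 replicate 2. In the high Lars2 set, where replicate 2 is the sole control8 library, the median was -0.23. The endothelial transcription factor Sox18 was at 30.1, 58.1 and 12.3 CPM in control8 and 121, 127 and 99.8 CPM in initial libraries (log2 fold change -1.79 ± 0.65, adjusted p = 0.181). Kdr, the VEGF receptor 2, was at 129, 209 and 58.6 CPM in control8 and 329, 387 and 274 CPM in initial libraries (log2 fold change -1.32 ± 0.63, adjusted p = 0.317). Replicate 2, the control8 library with high Lars2, was the highest of the 3 for both, and 15 of the 28 genes had all control8 libraries below all initial ones, against 19.1% of all tested genes. The chemokine Cxcl12, made by stromal and perivascular cells, followed the same order, at 178, 299 and 98.5 CPM in control8 and 429, 614 and 484 CPM in initial libraries (log2 fold change -1.41 ± 0.38, adjusted p = 0.0877).

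Clock genes differed in both directions, and the labels used here give no hour of sampling. Of 19 none was called, and the second fit called 6 higher and 5 lower, against 7.79% and 5.06% of all its genes. Arntl (BMAL1), the activator of the clock loop, was at 15.9, 23.3 and 18.7 CPM in control8 and 34.4, 41.0 and 37.4 CPM in initial libraries (log2 fold change -0.96 ± 0.28, adjusted p = 0.103). Cry1, a repressor, was at 8.39, 11.4 and 8.63 CPM in control8 and 17.0, 21.4 and 20.4 CPM in initial libraries (log2 fold change -1.05 ± 0.33, adjusted p = 0.134). Nr1d2 (REV-ERB beta), which represses Arntl, was at 66.8, 56.9 and 59.0 CPM in control8 and 36.2, 25.8 and 42.3 CPM in initial libraries (log2 fold change 0.81 ± 0.28, adjusted p = 0.158). Its relative Nr1d1 was at 201, 179 and 132 CPM in control8 and 130.3, 68.1 and 102 CPM in initial libraries (log2 fold change 0.77 ± 0.35, adjusted p = 0.292). Arntl and Cry1 thus lay lower in every 13-week library, and both REV-ERB genes higher.

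Lists of signalling, respiratory and ribosomal genes held no call in the first fit. That covers 43 nuclear respiratory chain genes, 30 progenitor and fibroblast genes, 37 Wnt pathway genes, 40 TGF-beta and BMP genes and 32 ribosomal protein genes. The second fit, which called 7.79% of all genes higher and 5.06% lower, called 1 of 43 respiratory chain genes higher and none lower. It called 4 of 30 progenitor genes higher and 1 lower, and 4 of 34 Wnt genes higher and 1 lower. It called 6 of 39 TGF-beta and BMP genes lower and 1 higher. Of 32 ribosomal protein genes it called 4 lower and none higher, with a list median of -0.23. In 12 of these ribosomal genes every 13-week library was below every 5-week one and in none was it above, against 19.1% and 19.4% of all tested genes. Boc, a co-receptor of Hedgehog signals, was at 67.0, 62.4 and 65.9 CPM in control8 and 30.5, 37.5 and 38.1 CPM in initial libraries (log2 fold change 0.88 ± 0.21, adjusted p = 0.051). Nog, the BMP antagonist noggin, was at 4.01, 4.98 and 2.35 CPM in control8 and 10.3, 13.2 and 8.07 CPM in initial libraries (log2 fold change -1.48 ± 0.50, adjusted p = 0.157), and every 13-week value was below every 5-week one.

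Levels at the later ages show which of these differences were also present at 17 and 21 weeks, in other mice on normal diet. Thbs2, at 434, 446 and 417 CPM at 5 weeks and 70.0, 76.3 and 105 CPM at 13 weeks, was at 95.6, 80.6 and 138 CPM at 17 weeks and 172, 131 and 160.0 CPM at 21 weeks, below every 5-week library. Mapkbp1 was at 63.6, 52.5 and 52.6 CPM at 17 weeks and 47.9, 51.0 and 39.4 CPM at 21 weeks, and Eepd1 at 234, 209 and 234 CPM at 17 weeks and 250.1, 233 and 246 CPM at 21 weeks. Both kept to the side of the 5-week libraries seen at 13 weeks. Lep was at 1691, 1336 and 1147 CPM at 17 weeks and 985, 754 and 2624 CPM at 21 weeks, all above the 5-week libraries. Other genes overlapped their 5-week level again. Cnr1 was at 5.92, 5.35 and 11.2 CPM at 17 weeks and 4.16, 5.46 and 5.00 CPM at 21 weeks, and Col6a6 at 19.2, 18.7 and 31.0 CPM at 17 weeks and 16.0, 26.6 and 32.0 CPM at 21 weeks. Both overlapped the 5-week libraries at each of these ages. Fam20a was at 18.2, 19.3 and 16.9 CPM at 17 weeks and 45.6, 37.3 and 22.2 CPM at 21 weeks, and Hist1h1c at 151, 125 and 82.1 CPM at 17 weeks and 170.3, 129 and 109.6 CPM at 21 weeks. Fam20a lay below the 5-week libraries at 17 weeks and overlapped them at 21 weeks. The kidney gene Kap was at 0, 0 and 0 CPM at 17 weeks and 0.0374, 0.0341 and 0 CPM at 21 weeks. The genes were chosen for their difference at 13 weeks, so these levels are a description with no test.

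**Figure D5:**
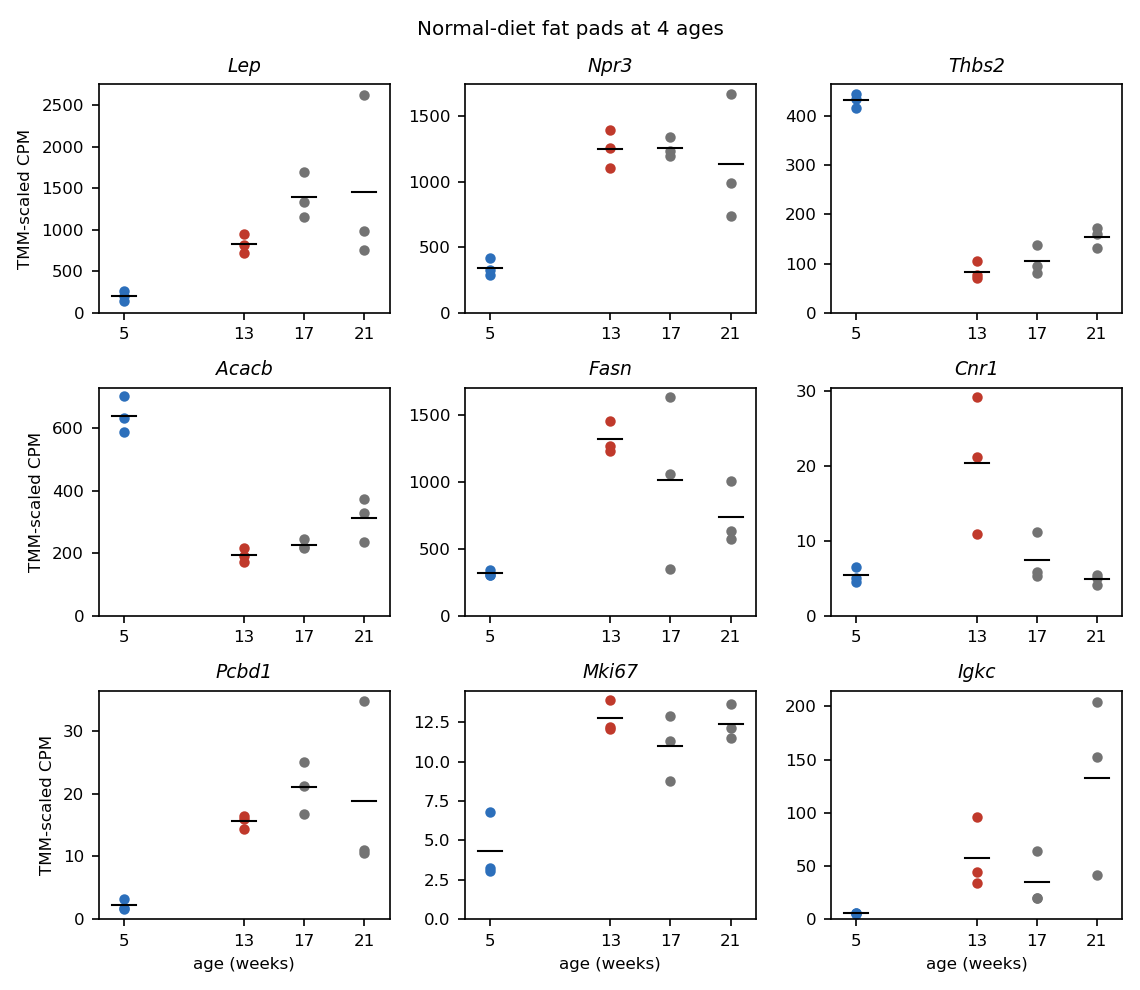
CPM of 9 genes at 5 weeks (initial) and, on normal diet, at 13, 17 and 21 weeks (control8, control12 and control16), 1 point per library with the group mean as a bar. Thbs2 and Acacb stay below the 5-week libraries at all later ages. Cnr1 has its highest group mean at 13 weeks, with libraries at 10.9 to 29.2 CPM. For Cnr1, control12 replicate 3 at 17 weeks, at 11.2 CPM, lies above the lowest 13-week library.

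The next interval of 8 weeks, control16 at 21 weeks over control8 at 13 weeks, gave few calls: 1 gene higher (0.00561%) and 2 lower (0.0112%), 0.0168% of genes in all, with 1538 at an unadjusted p under 0.05. The fit of the 4 normal-diet ages called 78 higher (0.459%) and 102 lower (0.6%), 1.06% in all. Hdac6, a tubulin deacetylase, was at 16.2, 16.9 and 17.7 CPM in control16 and 25.2, 24.8 and 25.5 CPM in control8 (log2 fold change -0.57 ± 0.09, adjusted p = 0.0281). Tbc1d31, a centrosomal protein, was at 13.0, 13.0 and 12.5 CPM in control16 and 23.4, 20.1 and 28.7 CPM in control8 (log2 fold change -0.91 ± 0.14, adjusted p = 0.0281). The clone-named gene RP23-428M4.4 was at 38.6, 29.4 and 35.9 CPM in control16 and 15.5, 13.1 and 12.4 CPM in control8 (log2 fold change 1.34 ± 0.22, adjusted p = 0.029). All 3 were also called between 13 and 5 weeks, with log2 fold changes of 0.40 for Hdac6, 0.77 for Tbc1d31 and -1.26 for RP23-428M4.4. Without control8 replicate 2 Hdac6 missed the threshold between 13 and 5 weeks (adjusted p = 0.0953). The 2 comparisons share the control8 libraries, so a level that stands out in control8 enters both.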

How the data were processed

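Total RNA of 27 epididymal fat pad samples had been sequenced with a TruSeq RNA kit. The authors deposited read counts per gene and FPKM values, and the submitters' processing notes name Trimmomatic 0.33, TopHat2 2.0.13 and HTSeq 0.6.0 as tools and mm10 (GRCm38) as the build. Neither the annotation nor the strand setting is given, and overlapping, antisense and near-identical genes may share reads. The count table held 43460 gene names after 156 identical repeated rows were dropped, and FPKM were given for 22194 genes.

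The deposited counts were tested with edgeR 4.0.16 (R 4.3.3): TMM scaling, the filterByExpr rule (count 10, total 15), a group-means model of all 27 libraries, quasi-likelihood tests and Benjamini-Hochberg adjustment. The scripts were tested on simulated data. Groups were taken from the sample labels, and 3 libraries against 3 allow no exact permutation p below 0.1. CPM are reads relative to the TMM-scaled library size. The 6 libraries held 27665898 to 30820468 counts, and 3 counts are the floor under which a gene is read as not detected; floors cover counting error only. The authors' FPKM were used on the log2(FPKM + 1) and log2(FPKM + 0.1) scales with limma 3.58.1, and DESeq2 1.42.0 was an alternative. Positions are GENCODE's for GRCm38, found for 17652 of 17821 tested names, and promoters are RefSeq's.

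The comparison, its gene lists and its tests were chosen with earlier results of these data known. Named genes were up to 12 per direction with the largest change among called genes that did not overlap, reached 5 CPM, stayed called without control8 replicate 2 and had no clone or predicted name. Added to these were the up to 4 list members with the smallest adjusted p and a set of marker genes named whatever their result, some of which are not reported here, and the remaining genes were chosen after their values were seen. The kidney genes, the fit of the 4 normal-diet ages and the fit without maintenance replicate 3 were also chosen after seeing the data.

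Replicate numbers were tested as a possible pairing: the deviations of same-numbered control8 and initial libraries correlated at 0.04, 0.12 and -0.01 for replicates 1, 2 and 3, so no pairing was taken. Counts of replicate libraries differed by more than sampling noise for every pair.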

Additional observations from a re-analysis of the deposited data

How the results depend on the processing

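Between 13 and 5 weeks, where 64 genes were called higher and 65 lower, the counts differed between alternatives. DESeq2 called 425 higher and 254 lower, the 6 compared libraries alone 1265 and 822, the 4 normal-diet ages 661 and 639, and the fit without maintenance replicate 3, a library with liver transcripts, 219 and 162. Fewer were called with the Lars2 set as a term (37 and 46) and in the high Lars2 set (1 and 0). With no filter on low counts there were 47 and 31, at log2(FPKM + 0.1) 73 and 41, at log2(FPKM + 1) with no filter 108 and 72, and at 2-fold or more 53 and 36. Leaving out 1 library at a time gave 0 to 41 higher and 0 to 23 lower. With the replicate number as a block there were 54 and 70, and the numbers do not pair the samples. For 21 against 13 weeks, where 1 gene was higher and 2 lower, DESeq2 called 52 and 80, the 6 compared libraries 0 and 0, the 4 ages 78 and 102, the fit without maintenance replicate 3 8 and 18, the Lars2 term 4 and 3, the replicate block 4 and 3, no filter 1 and 0, log2(FPKM + 1) 0 and 15, and log2(FPKM + 0.1) 0 and 7. Leaving out 1 library gave 0 to 3 higher and 0 to 5 lower. The estimate of relative spread within groups that edgeR shares over genes was 0.3316 over 27 libraries and 0.2983 without maintenance replicate 3. It was 0.2696 over the 4 normal-diet ages and 0.1911 over the 6 libraries of 13 and 5 weeks. An SE of the first fit thus also holds spread among libraries outside the comparison. The cause of the differing counts was not tested.

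Of 1866 log2 fold changes of 105 of the named genes under these alternatives, 1852 kept the direction reported, and 14 reversed, all of genes that were not called. Leaving out 1 library gave -0.42 to 0.20 for Col1a1, -1.06 to 0.59 for Dlk1, -0.44 to 0.034 for Esr1, -0.23 to 0.20 for H19 and -0.16 to 0.31 for Retn. The Lars2 term gave 0.033 for Col1a1 and -0.083 for Trem2. The high Lars2 set gave 0.42 for Col1a1, 0.29 for Esr1, -0.029 for H19 and -0.29 for Retn, and the replicate block gave -0.036 for Dlk1. Genes at 3 counts or fewer are at the limit of this depth.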
